A study of Homo sapiens with 9 samples.

Results

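Interferon-stimulated genes and RNA sensors were followed as 59 genes of the 58395 counted in MDA-MB-231 cells, a human triple-negative breast cancer line. The set was a list of gene symbols without the MHC genes. It holds sensors of foreign RNA and DNA, 5 STAT and IRF transcription factors and effectors induced by type I or type II interferon. The rule used no measured value, but the list was chosen with earlier results of these data known. The cells had been transfected with a non-targeting siRNA (siNC) or with either of 2 siRNAs against the zinc transporter ZIP7 (siZIP7_1 and siZIP7_2). RNA was taken 96 h later for 3 libraries per siRNA, 9 in all. The authors list the siRNAs named ZIP7_1 and ZIP7_2 from different suppliers (Horizon and Qiagen), so supplier and siRNA cannot be told apart. No interferon, virus or other stimulus is named for these cells, every group carried an siRNA duplex, and the labels do not say whether the libraries of a group came from separate cultures, so p-values measure the spread between these libraries.

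Interferons are secreted proteins that bind receptors of the same or neighbouring cells and act through JAK kinases and STAT factors. Type I interferon leads through STAT2 and IRF9, among other factors, to the interferon-stimulated response element (ISRE), and type II interferon to the gamma-activated sequence (GAS) and through IRF1 to further genes. The products include sensors that recognise viral RNA in the cytosol, enzymes that degrade or modify RNA, and proteins that block entry, translation or budding of viruses. Many of these genes are also transcribed at a low level in unstimulated cells.

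Promoters are shown for 6 members that changed by at least 2-fold with one siRNA or both and that hold the ISRE core, because genes that rose and genes that fell carried the same letters. The core searched was GAAANNGAAA, a pair of GAAA half-sites with 2 free bases between them, on both strands and in any overlap with another match. The bases are from RefSeq (GRCh38.p14), run from 250 bases before the start of transcription up to the start, and are printed 5′ to 3′ on the strand of the gene with each ISRE core in capitals.
IFIT1 (chr10:89392373-89392622, plus strand): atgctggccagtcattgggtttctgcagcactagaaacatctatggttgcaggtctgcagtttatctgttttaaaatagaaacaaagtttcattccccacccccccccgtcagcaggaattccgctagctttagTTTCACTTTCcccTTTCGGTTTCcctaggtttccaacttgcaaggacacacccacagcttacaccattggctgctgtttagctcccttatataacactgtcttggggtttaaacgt
ISG15 (chr1:1013247-1013496, plus strand): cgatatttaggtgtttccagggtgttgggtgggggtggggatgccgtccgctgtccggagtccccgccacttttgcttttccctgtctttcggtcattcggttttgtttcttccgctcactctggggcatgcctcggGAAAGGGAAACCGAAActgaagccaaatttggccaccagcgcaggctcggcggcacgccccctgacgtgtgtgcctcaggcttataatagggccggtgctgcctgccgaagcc
ISG20 (chr15:88638766-88639015, plus strand): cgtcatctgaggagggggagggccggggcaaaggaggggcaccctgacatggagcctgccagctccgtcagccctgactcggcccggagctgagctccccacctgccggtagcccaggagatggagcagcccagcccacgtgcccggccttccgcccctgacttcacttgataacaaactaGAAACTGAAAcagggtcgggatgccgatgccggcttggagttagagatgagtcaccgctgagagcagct
OAS3 (chr12:112938224-112938473, plus strand): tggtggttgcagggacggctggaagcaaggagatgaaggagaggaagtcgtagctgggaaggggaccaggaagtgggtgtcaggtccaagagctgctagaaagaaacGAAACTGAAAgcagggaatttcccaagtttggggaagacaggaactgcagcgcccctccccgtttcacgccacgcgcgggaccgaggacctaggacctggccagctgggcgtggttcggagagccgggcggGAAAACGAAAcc
BST2 (chr19:17405631-17405880, minus strand): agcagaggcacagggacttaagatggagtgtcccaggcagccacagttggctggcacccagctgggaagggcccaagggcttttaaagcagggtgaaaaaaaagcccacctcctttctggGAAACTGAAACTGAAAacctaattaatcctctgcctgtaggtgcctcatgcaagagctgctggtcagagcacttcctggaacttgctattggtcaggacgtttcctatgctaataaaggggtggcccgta
GBP1 (chr1:89065209-89065458, minus strand): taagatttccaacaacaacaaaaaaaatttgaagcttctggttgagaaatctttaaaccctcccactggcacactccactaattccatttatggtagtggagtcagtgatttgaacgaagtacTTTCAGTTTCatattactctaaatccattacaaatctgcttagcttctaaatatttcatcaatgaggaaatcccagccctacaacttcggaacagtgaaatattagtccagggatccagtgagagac

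IFIT1, with 2 cores that begin 116 and 103 bases before the start, rose with both siRNAs. ISG15, whose cores at 113 and 107 bases overlap by one half-site, and ISG20, with its core at 69 bases, rose by at least 2-fold with siZIP7_2. OAS3, with cores at 143 and 12 bases, fell with siZIP7_1, and BST2, with overlapping cores at 130 and 124 bases, and GBP1, with its core at 127 bases, fell with both siRNAs. RefSeq windows of 300 bases, from 250 before to 50 after the start, were found for 48 of the 59 members, several of them with more than one start. The core was present in a window of 30 of these 48 members, or 62.5%, and of 4.38% of the 27305 genes with a window. The shorter GAS core TTCNNNGAA, which can overlap an ISRE match, was present in 15 members (31.2%) and in 9.38% of all genes. These matches describe letters in the windows and were not tested for binding.

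The libraries held between 24153785 and 30454419 reads on genes. Levels are given as CPM (counts scaled by library size to parts per 1e+06). By reads on genes alone, without the normalization of the other CPM, 3 counts (the floor used for detection) equalled 0.0985 to 0.124 CPM. The targeted gene, SLC39A7, which encodes ZIP7, fell from 329 ± 12.5 CPM in siNC (mean ± SD, n = 3 here and throughout) to 35.6 ± 2.83 with siZIP7_1 (log2 fold change -3.20, SE 0.058, adjusted p = 7.38e-27). With siZIP7_2, SLC39A7 stood at 19.2 ± 1.45 CPM (log2 fold change -4.10, SE 0.063, adjusted p = 1.16e-28). The mesenchymal marker VIM was at 5529 CPM in siNC and fell with both siRNAs (log2 fold change -1.04 and -0.93). CD44, at 816 CPM, fell with siZIP7_1 and rose with siZIP7_2 (-0.81 and 1.14). The epithelial keratins KRT8 and KRT18, at 204 and 247 CPM, rose with siZIP7_1 (1.29 and 0.59) and fell with siZIP7_2 (-0.15 and -0.39). PGR had no more than 2 counts in any library, and ERBB2 was at 74.2 CPM in siNC. ESR1 had 3, 2 and 2 counts in siNC, 9, 6 and 6 with siZIP7_1 and 15, 14 and 12 with siZIP7_2. Of 5 leukocyte markers, CD3E, NCAM1 and CLEC4C had at most 1 count in every library. The other two, PTPRC and CD14, had more, and the summed level of the 5 markers ran from 1.68 to 2.87 CPM in siNC, 1.31 to 1.60 with siZIP7_1 and 9.08 to 12.2 with siZIP7_2, nearly all of the latter from CD14 (8.72 to 11.9 CPM). The part of these markers in the results was not tested.

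Nearly the whole set was transcribed in siNC cells. Of the 59 members, 57 exceeded 3 counts in all 9 libraries and 58 passed the low-count filter, the exception being CMPK2, a mitochondrial nucleotide kinase, with 1, 0 and 2 counts in siNC, 0, 0 and 0 with siZIP7_1 and 2, 0 and 0 with siZIP7_2. Per length of transcript, as CPM divided by exonic length in kilobases (RPKM), the highest levels in siNC were those of the secreted glycoprotein LGALS3BP (193), the tethering protein BST2 (107), the entry inhibitor IFITM3 (91.4), the ubiquitin-like ISG15 (53.9) and the RNA editor ADAR (39.7). At the low end, 12 members were under 1 RPKM, among them MX1 (0.148), MX2 (0.0588), RSAD2 (0.134) and IFI44L (0.237), which are classical markers of an interferon response. The 59 genes together took 0.333% to 0.348% of the unscaled reads in siNC, 0.338% to 0.348% with siZIP7_1 and 0.356% to 0.374% with siZIP7_2. Summed as normalized CPM, they stood at 3515 ± 58.0 in siNC, 3316 ± 51.5 with siZIP7_1 and 3677 ± 96.2 with siZIP7_2. On that scale every siZIP7_1 library (3259 to 3359 CPM) lay below every siNC library (3451 to 3564 CPM). These sums were not tested. Bulk RNA cannot tell more RNA per cell from more cells with RNA.

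With both siRNAs most of the set passed the test, as did most genes of these cells. With siZIP7_1, 15 of the 58 tested members were higher than in siNC and 32 lower at an adjusted p under 0.05 in edgeR's quasi-likelihood test, where 34.8% of all 16761 genes tested were higher and 35.9% lower. By at least 2-fold, 3 members were higher (all genes, 11.0%) and 14 lower (all genes, 9.91%). With siZIP7_2, 22 members were higher (all genes, 38.5%) and 23 lower (39.3%), and by at least 2-fold 9 were higher (16.3%) and 6 lower (11.9%). As shares of the 58 members, 25.9% were higher and 55.2% lower with siZIP7_1, and 37.9% higher and 39.7% lower with siZIP7_2. The median log2 fold change of the 58 members was -0.31 with siZIP7_1 and 0.014 with siZIP7_2, beside -0.0069 and -0.0018 over all genes tested. Tested directly, siZIP7_2 gave higher levels than siZIP7_1 for 33 members (all genes, 38.1%) and lower levels for 18 (40.6%), with 18 higher by at least 2-fold (16.8%) and 5 lower (14.3%). The median difference was 0.41 on the log2 scale for the members and -0.022 for all genes. Since most genes passed the test in each comparison, direction and size are given below for each family rather than the number of calls alone.

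**Figure D1:**
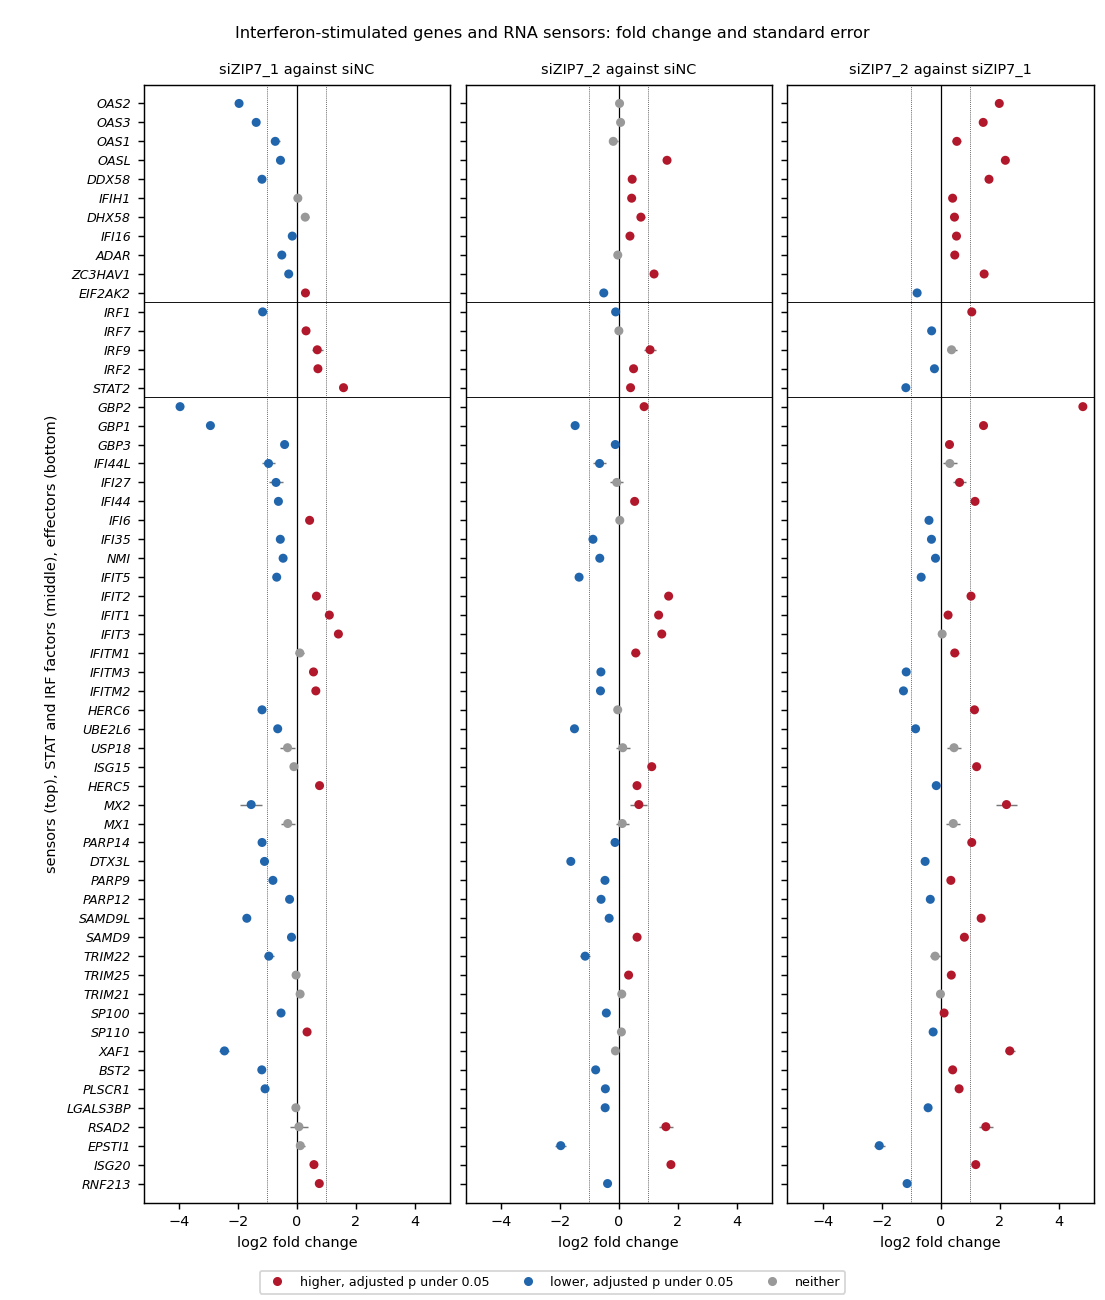
Log2 fold change (horizontal axis, with standard errors as bars) of the 58 tested members for siZIP7_1 against siNC, siZIP7_2 against siNC and siZIP7_2 against siZIP7_1, with dotted lines at a 2-fold change and sensors, factors and effectors from top to bottom. GBP2 lies farthest to the left with siZIP7_1 (-3.96) and farthest to the right between the siRNAs (4.82), and 10 of the 11 sensors lie to the right of 0 in the last panel.

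The ligands of the pathway had counts at or near 0. Of 21 interferon genes, 19 had no read in any library, including IFNB1, IFNG and all 13 IFNA genes, and none passed the low-count filter. IFNL1, a type III interferon, had 4, 1 and 1 counts in siNC, 1, 0 and 5 with siZIP7_1 and 7, 4 and 4 with siZIP7_2, and IFNL3 had 1 count in one library. A count of 0 allows up to 3 counts in a library, so lower levels were not detectable at this depth. Reads that align to several places are also absent from the counts. A stretch shared by near-identical genes, as among the IFNA genes or IFNL2 and IFNL3, is therefore not represented. For those genes a count of 0 does not show that RNA was absent.

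The receptors and kinases, by contrast, were all transcribed, and the siRNAs differed in how these moved. With siZIP7_2, 8 of the 9 receptor and JAK kinase genes rose and none fell (all genes, 38.5% higher and 39.3% lower). With siZIP7_1, 3 rose (33.3%) and 4 fell (44.4%), beside 34.8% higher and 35.9% lower over all genes. Of these falls, that of IFNAR2 (log2 fold change -0.30, SE 0.12, adjusted p = 0.0362) was lost under DESeq2. The kinase JAK1, which serves the receptors of both types, stood at 157, 144 and 150.4 CPM in siNC, 113, 109.7 and 105 with siZIP7_1 and 280.3, 288 and 293 with siZIP7_2. It fell with the first siRNA (log2 fold change -0.46, SE 0.048, adjusted p = 9.33e-10) and rose with the second (log2 fold change 0.93, SE 0.047, adjusted p = 8.61e-17), with no overlap between the groups, and the level with siZIP7_2 was 2.63-fold that with siZIP7_1 (adjusted p = 5.43e-21). IFNGR2, the second chain of the type II receptor, went the same way, from 46.6 ± 1.91 CPM to 21.5 ± 1.78 with siZIP7_1 (log2 fold change -1.12, SE 0.065, adjusted p = 2.69e-15). With siZIP7_2, IFNGR2 stood at 59.4 ± 3.45 CPM (log2 fold change 0.35, SE 0.060, adjusted p = 6.04e-06). IFNLR1, the receptor chain for type III interferon, was the one receptor to rise by at least 2-fold, from 2.87 ± 0.360 CPM to 6.94 ± 0.374 with siZIP7_1 (log2 fold change 1.27, SE 0.13, adjusted p = 3.67e-10), against 3.97 ± 0.318 with siZIP7_2 (log2 fold change 0.47, SE 0.14, adjusted p = 0.00328). IFNAR1, a chain of the type I receptor, was at 81.0 ± 2.01 CPM in siNC and 82.9 ± 3.48 with siZIP7_1 (adjusted p = 0.550), and rose to 114 ± 4.01 with siZIP7_2 (log2 fold change 0.50, SE 0.049, adjusted p = 2.44e-10).

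**Figure D2:**
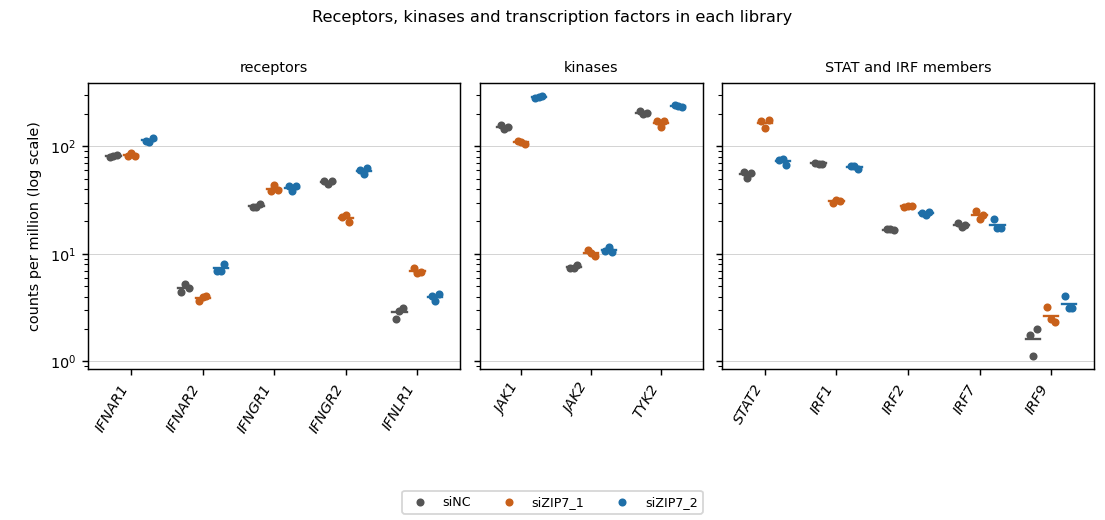
Levels (CPM, log scale) of 5 interferon receptor chains, 3 kinases and the 5 STAT and IRF members in each library, with points for libraries and short lines for group means. JAK1 and IFNGR2 lie below siNC with siZIP7_1 and above it with siZIP7_2, STAT2 is highest with siZIP7_1, and IRF1 is lowest with siZIP7_1.

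The transcription factors of the pathway moved in both directions. STAT2, which serves type I signalling, stood at 57.9, 50.7 and 56.6 CPM in siNC, 171, 147 and 177 with siZIP7_1 and 74.8, 76.4 and 66.8 with siZIP7_2. Every siZIP7_1 library thus lay above every other, with a 2.99-fold rise (log2 fold change 1.58, SE 0.064, adjusted p = 5.98e-19), a smaller one with siZIP7_2 (log2 fold change 0.40, SE 0.066, adjusted p = 3.34e-06) and a tested difference between them (log2 fold change -1.18, SE 0.063, adjusted p = 2.07e-16). IRF9, the DNA-binding part of the same complex, rose from 1.62 ± 0.451 CPM to 2.67 ± 0.472 with siZIP7_1 (log2 fold change 0.69, SE 0.20, adjusted p = 0.00261). With siZIP7_2, IRF9 stood at 3.44 ± 0.520 CPM (log2 fold change 1.06, SE 0.19, adjusted p = 1.16e-05), but another annotated gene covers 48.4% of its exonic length, and reads there may not have been assigned to it.

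IRF1, an activator that type II interferon induces, went the other way. Its levels were 69.8, 69.2 and 69.1 CPM in siNC, 29.9, 32.0 and 31.0 with siZIP7_1 and 65.4, 65.6 and 62.2 with siZIP7_2. With siZIP7_1 it was lower by 2.24-fold (log2 fold change -1.16, SE 0.052, adjusted p = 5.71e-18). The difference of siZIP7_2 from siNC was small (log2 fold change -0.11, SE 0.049, adjusted p = 0.0488) and lost its call under 12 of the alternative settings. Other genes cover 22.0% of the exonic length of IRF1. IRF2, a factor that competes with IRF1 for its sites, rose from 17.0, 16.9 and 16.7 CPM to 27.0, 27.8 and 27.9 with siZIP7_1 (log2 fold change 0.71, SE 0.064, adjusted p = 5.69e-11). With siZIP7_2, IRF2 stood at 24.1, 22.8 and 24.6 CPM (log2 fold change 0.50, SE 0.066, adjusted p = 7.29e-08). IRF7, which amplifies interferon transcription, rose with siZIP7_1 from 19.2, 17.9 and 18.4 CPM to 25.1, 21.0 and 22.8 (log2 fold change 0.31, SE 0.079, adjusted p = 0.00100). With siZIP7_2 it was at 21.0, 17.3 and 17.4 CPM, which overlapped siNC, and below that with siZIP7_1 (log2 fold change -0.31, SE 0.079, adjusted p = 8.62e-04). IRF3, the constitutive factor below the RNA sensors and not a member, was at 88.0 ± 2.29 CPM in siNC and fell to 42.6 ± 2.57 with siZIP7_2 (log2 fold change -1.04, SE 0.056, adjusted p = 3.34e-16), against 96.4 ± 5.90 with siZIP7_1.

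Among the 11 sensors, levels were mostly lower with siZIP7_1 and mostly higher with siZIP7_2. Of these, 8 fell and 1 rose with siZIP7_1, 6 rose and 1 fell with siZIP7_2, and siZIP7_2 was above siZIP7_1 for 10 and below it for 1. Over all genes tested, 35.9% fell and 34.8% rose with siZIP7_1, and 38.5% rose and 39.3% fell with siZIP7_2. Between the siRNAs, 38.1% of all genes were higher with siZIP7_2 and 40.6% lower. The medians of the log2 differences of the sensors were -0.51, 0.38 and 0.55 in these comparisons. Under the alternative settings the sensors lower with siZIP7_1 numbered 7 or 8, and the other counts moved by at most 1.

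DDX58, which encodes the RNA helicase RIG-I, a sensor of RNA with a triphosphate end, stood at 84.5, 77.2 and 82.6 CPM in siNC, 35.0, 38.7 and 33.8 with siZIP7_1 and 114, 107 and 115 with siZIP7_2. The groups did not overlap. It was 2.27-fold lower with siZIP7_1 (log2 fold change -1.19, SE 0.057, adjusted p = 2.90e-17) and 1.37-fold higher with siZIP7_2 (log2 fold change 0.45, SE 0.053, adjusted p = 8.26e-09), which left a 3.12-fold difference between the siRNAs (log2 fold change 1.64, SE 0.056, adjusted p = 5.56e-21). IFIH1, which encodes MDA5, a sensor of long RNA duplexes, was far lower per length in siNC (1.87 RPKM, against 18.7 for DDX58). It was at 9.95, 9.19 and 9.50 CPM in siNC and 9.94, 9.48 and 9.88 with siZIP7_1, overlapping ranges with no call (log2 fold change 0.031, SE 0.092, adjusted p = 0.775), and rose to 13.9, 11.3 and 13.7 with siZIP7_2 (log2 fold change 0.44, SE 0.090, adjusted p = 7.66e-05). DHX58, which encodes LGP2, a helicase that modulates the other two, was at 4.83, 4.94 and 3.84 CPM in siNC and 6.08, 4.40 and 5.99 with siZIP7_1 (log2 fold change 0.28, SE 0.14, adjusted p = 0.0763). Without siZIP7_1 replicate 2 this difference passed the test (log2 fold change 0.42, adjusted p = 0.00698). With siZIP7_2 it rose to 9.01, 7.01 and 6.84 CPM (log2 fold change 0.75, SE 0.14, adjusted p = 1.36e-05).

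**Figure D3:**
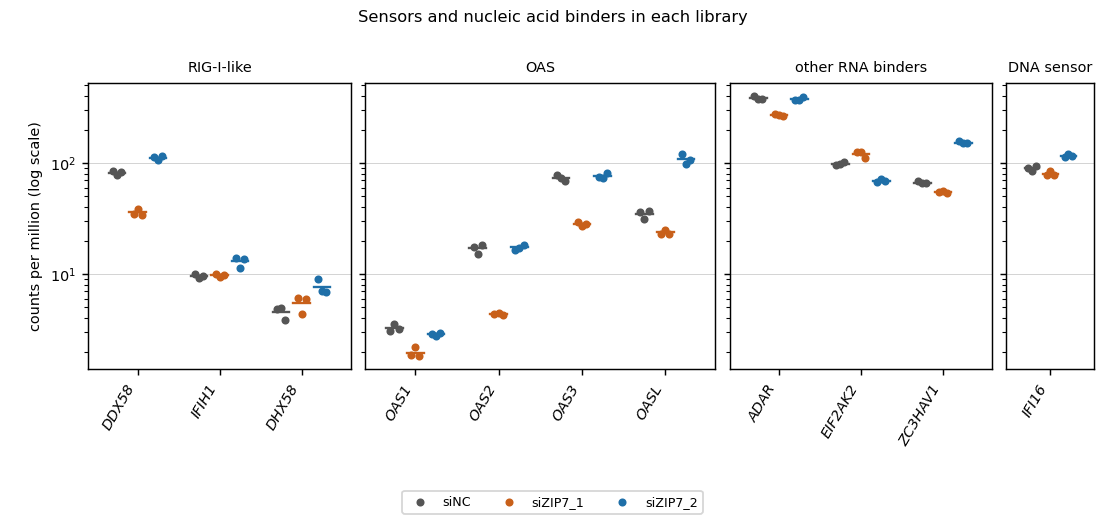
Levels (CPM, log scale) of the 11 sensor genes in each library, grouped as RIG-I-like helicases, OAS enzymes, other RNA binders and the DNA sensor IFI16, with points for libraries and short lines for group means. The siZIP7_1 libraries lie below siNC for DDX58 and the 4 OAS genes, and the siZIP7_2 libraries lie above siNC for OASL and ZC3HAV1 and below it for EIF2AK2.

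On sensing RNA duplexes the OAS enzymes make short adenylate chains, a messenger of the antiviral state. All 4 genes were lower with siZIP7_1 (all genes, 35.9%). OAS2 fell from 17.7, 15.3 and 18.1 CPM to 4.41, 4.47 and 4.27, or 3.90-fold (log2 fold change -1.96, SE 0.094, adjusted p = 2.91e-17), and was at 16.5, 17.3 and 18.4 with siZIP7_2, overlapping siNC (log2 fold change 0.025, SE 0.078, adjusted p = 0.776). OAS3, the most abundant of the family in siNC by CPM, fell from 77.2, 72.9 and 69.5 CPM to 29.2, 26.8 and 28.3 (log2 fold change -1.38, SE 0.059, adjusted p = 1.66e-18) and was at 74.6, 72.8 and 81.7 with siZIP7_2 (log2 fold change 0.061, SE 0.055, adjusted p = 0.313). OAS1 was scarce, at 3.09, 3.52 and 3.20 CPM in siNC and 1.86, 2.20 and 1.82 with siZIP7_1 (log2 fold change -0.74, SE 0.15, adjusted p = 1.07e-04). With siZIP7_2, OAS1 stood at 2.91, 2.76 and 2.92 CPM (log2 fold change -0.19, SE 0.15, adjusted p = 0.240). OASL, an OAS-like protein without the enzyme activity that enhances RIG-I, was lower with siZIP7_1 and higher with siZIP7_2. Its levels were 36.2, 31.4 and 36.6 CPM in siNC and 23.0, 24.9 and 23.0 with siZIP7_1 (log2 fold change -0.56, SE 0.073, adjusted p = 7.57e-08). With siZIP7_2, OASL stood at 119.9, 98.2 and 107 CPM (log2 fold change 1.64, SE 0.066, adjusted p = 4.77e-19), a 4.58-fold difference between the siRNAs (log2 fold change 2.19, SE 0.068, adjusted p = 5.73e-22).

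Among the other RNA binders, EIF2AK2 was the single sensor to rise with siZIP7_1 and the single one to fall with siZIP7_2. It encodes PKR, a kinase that halts translation when it binds RNA duplexes, and stood at 95.0, 98.6 and 103 CPM in siNC and 126, 125 and 111 with siZIP7_1 (log2 fold change 0.29, SE 0.052, adjusted p = 1.32e-05). With siZIP7_2, EIF2AK2 stood at 66.8, 71.7 and 69.5 CPM (log2 fold change -0.51, SE 0.053, adjusted p = 8.58e-10). The 3 groups did not overlap. ADAR, which edits adenosine in duplex RNA and so keeps the cell's own RNA from the sensors, fell with siZIP7_1, from 399, 378 and 378 CPM to 278, 269 and 263 (log2 fold change -0.51, SE 0.046, adjusted p = 4.81e-11). With siZIP7_2 it was at 371, 367 and 389.7 CPM, which overlapped siNC (log2 fold change -0.035, SE 0.046, adjusted p = 0.488). ZC3HAV1, the zinc-finger antiviral protein that directs CpG-rich RNA to decay, was at 68.1, 65.7 and 66.2 CPM in siNC, 54.5, 56.4 and 53.9 with siZIP7_1 (log2 fold change -0.28, SE 0.049, adjusted p = 9.55e-06) and 157, 151 and 149.8 with siZIP7_2, a 2.29-fold rise over siNC (log2 fold change 1.20, SE 0.047, adjusted p = 2.37e-19). The DNA sensor IFI16 was at 89.3 ± 4.58 CPM in siNC and 80.1 ± 3.18 with siZIP7_1 (log2 fold change -0.16, SE 0.051, adjusted p = 0.00697). With siZIP7_2, IFI16 stood at 116 ± 3.90 CPM (log2 fold change 0.38, SE 0.050, adjusted p = 8.32e-08), and the call with siZIP7_1 was lost without siNC replicate 3.

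The IFIT proteins bind viral RNA ends or translation factors, and 3 of their 4 genes rose with both siRNAs. Over all genes tested, 34.8% rose with siZIP7_1 and 38.5% with siZIP7_2. The 4 genes lie together on chromosome 10 (GRCh38 89283694 to 89421001). IFIT3 rose from 77.5, 71.0 and 83.5 CPM to 199, 222 and 195 with siZIP7_1 (log2 fold change 1.41, SE 0.058, adjusted p = 7.27e-19). With siZIP7_2, IFIT3 stood at 222, 207 and 209.5 CPM (log2 fold change 1.46, SE 0.058, adjusted p = 3.10e-19). The siZIP7 libraries of both groups lay above every siNC library and overlapped one another (adjusted p = 0.403). IFIT1 rose from 24.0, 21.5 and 24.9 CPM to 48.8, 50.6 and 51.8 with siZIP7_1 (log2 fold change 1.10, SE 0.063, adjusted p = 1.73e-15). With siZIP7_2, IFIT1 stood at 63.0, 55.8 and 61.4 CPM (log2 fold change 1.35, SE 0.062, adjusted p = 1.01e-17). IFIT2 rose less with siZIP7_1 than with siZIP7_2, from 48.5, 45.8 and 49.0 CPM to 72.8, 79.9 and 74.1 with siZIP7_1 (log2 fold change 0.66, SE 0.057, adjusted p = 1.67e-11). With siZIP7_2, IFIT2 stood at 164, 143 and 156 CPM (log2 fold change 1.69, SE 0.056, adjusted p = 4.33e-21), with a tested difference of 2.04-fold (adjusted p = 1.19e-16). IFIT5, the neighbour in the same cluster, fell with both siRNAs, from 54.1, 51.1 and 58.3 CPM to 33.2, 35.1 and 33.4 with siZIP7_1 (log2 fold change -0.69, SE 0.058, adjusted p = 1.12e-11). With siZIP7_2, IFIT5 stood at 21.5, 21.0 and 21.9 CPM (log2 fold change -1.35, SE 0.061, adjusted p = 6.13e-18). Reads that align to several places are absent from the counts, so a stretch shared by near-identical members of this and the next 2 families is not represented.

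**Figure D4:**
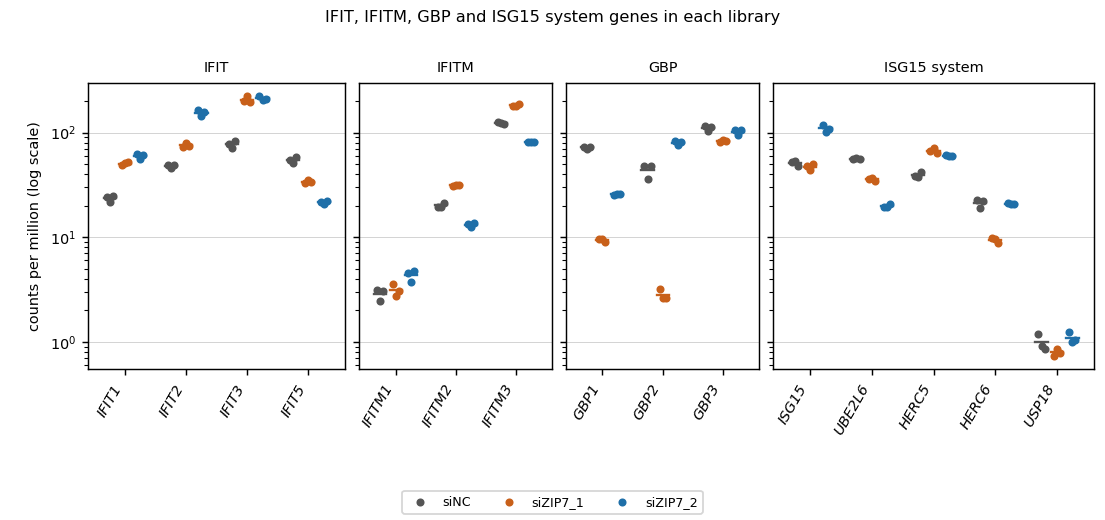
Levels (CPM, log scale) of the IFIT, IFITM, GBP and ISG15 system genes in each library, with points for libraries and short lines for group means. IFIT1, IFIT2 and IFIT3 lie above siNC with both siRNAs and IFIT5 below it, IFITM2 and IFITM3 lie above siNC with siZIP7_1 and below it with siZIP7_2, and GBP2 is lowest with siZIP7_1 and highest with siZIP7_2.

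IFITM proteins sit in cell membranes and hinder the fusion of viruses. IFITM2 and IFITM3 moved in opposite directions with the siRNAs. IFITM3 was at 125, 123 and 122 CPM in siNC and 178, 179 and 189 with siZIP7_1 (log2 fold change 0.56, SE 0.045, adjusted p = 3.41e-12). With siZIP7_2, IFITM3 stood at 80.5, 80.3 and 81.8 CPM (log2 fold change -0.61, SE 0.046, adjusted p = 9.81e-13). IFITM2 was at 19.6, 19.6 and 21.3 CPM in siNC and 30.7, 31.8 and 31.8 with siZIP7_1 (log2 fold change 0.64, SE 0.064, adjusted p = 5.02e-10). With siZIP7_2, IFITM2 stood at 13.2, 12.5 and 13.6 CPM (log2 fold change -0.62, SE 0.071, adjusted p = 5.39e-09). For both genes no group overlapped another, and siZIP7_2 stood 2.25-fold and 2.40-fold below siZIP7_1 for IFITM3 and IFITM2 (adjusted p = 1.35e-19 and adjusted p = 2.46e-16). IFITM1 was scarce, with 2.89 ± 0.385 CPM in siNC and 3.12 ± 0.416 with siZIP7_1 (log2 fold change 0.10, SE 0.15, adjusted p = 0.582). With siZIP7_2, IFITM1 stood at 4.35 ± 0.527 CPM (log2 fold change 0.57, SE 0.15, adjusted p = 8.92e-04). Other annotated genes cover 32.5% of the exonic length of IFITM1, 22.8% of IFITM2 and 21.3% of IFITM3.

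The guanylate-binding proteins, GTPases that type II interferon induces strongly, included the 2 largest falls in the set with siZIP7_1. GBP2 stood at 47.4, 36.1 and 47.7 CPM in siNC, 3.20, 2.61 and 2.64 with siZIP7_1 and 82.9, 75.6 and 80.4 with siZIP7_2. It was 15.6-fold lower with siZIP7_1 (log2 fold change -3.96, SE 0.11, adjusted p = 5.13e-23) and 1.81-fold higher with siZIP7_2 (log2 fold change 0.86, SE 0.072, adjusted p = 8.06e-12), so that the siRNAs differed by 28.3-fold (log2 fold change 4.82, SE 0.10, adjusted p = 8.55e-26), the widest difference among the 58 members. GBP1 fell with both, from 73.0, 70.2 and 72.4 CPM to 9.65, 9.55 and 9.04 with siZIP7_1 (log2 fold change -2.93, SE 0.062, adjusted p = 1.71e-25). With siZIP7_2, GBP1 stood at 25.3, 26.1 and 25.9 CPM (log2 fold change -1.48, SE 0.055, adjusted p = 6.46e-20). GBP3, beside GBP1 in the cluster on chromosome 1 (GRCh38 89006666 to 89150456), fell less, from 116, 103 and 112 CPM to 80.9, 84.8 and 82.2 with siZIP7_1 (log2 fold change -0.42, SE 0.052, adjusted p = 3.60e-08). With siZIP7_2 it was at 105, 95.1 and 105 CPM, which overlapped siNC, and its call (log2 fold change -0.12, SE 0.052, adjusted p = 0.0386) was lost under 8 alternative settings.

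ISG15 is a ubiquitin-like protein joined to other proteins by UBE2L6 and HERC5 and removed by USP18. ISG15 stood at 51.7, 52.8 and 47.5 CPM in siNC and 47.6, 44.2 and 49.7 with siZIP7_1, overlapping ranges (log2 fold change -0.10, SE 0.061, adjusted p = 0.139), and rose to 119, 102 and 109 with siZIP7_2 (log2 fold change 1.12, SE 0.059, adjusted p = 2.64e-16). The conjugating enzyme UBE2L6 fell with both, from 56.4, 56.8 and 55.5 CPM to 36.3, 37.0 and 34.1 with siZIP7_1 (log2 fold change -0.65, SE 0.054, adjusted p = 9.58e-12). With siZIP7_2, UBE2L6 stood at 19.4, 19.5 and 20.5 CPM (log2 fold change -1.50, SE 0.058, adjusted p = 1.72e-19). The ligase HERC5 rose with both, from 39.2 ± 2.44 CPM to 66.9 ± 3.71 with siZIP7_1 (log2 fold change 0.77, SE 0.056, adjusted p = 5.05e-13). With siZIP7_2, HERC5 stood at 60.3 ± 0.971 CPM (log2 fold change 0.62, SE 0.057, adjusted p = 5.70e-11). Its relative HERC6 fell with siZIP7_1 (log2 fold change -1.18, SE 0.080, adjusted p = 9.45e-14), with means of 21.3 ± 2.02, 9.41 ± 0.498 and 20.8 ± 0.168 CPM in siNC, siZIP7_1 and siZIP7_2. USP18 was scarce, at 0.985 ± 0.186, 0.791 ± 0.0654 and 1.09 ± 0.135 CPM, with no call in any of the 3 comparisons. The 5 genes of this system therefore held rises, falls and neither within each comparison.

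The PARP and DTX3L genes, which encode ADP-ribose transferases and an E3 ligase, were all 4 lower with both siRNAs. Over all genes tested, 35.9% were lower with siZIP7_1 and 39.3% with siZIP7_2. DTX3L went from 61.4, 58.9 and 59.5 CPM to 27.9, 28.1 and 27.8 with siZIP7_1 (log2 fold change -1.10, SE 0.054, adjusted p = 5.33e-17). With siZIP7_2, DTX3L stood at 19.8, 19.4 and 18.9 CPM (log2 fold change -1.63, SE 0.057, adjusted p = 1.56e-20). PARP14 went from 63.5, 57.7 and 63.5 CPM to 27.9, 27.0 and 26.6 with siZIP7_1 (log2 fold change -1.18, SE 0.055, adjusted p = 1.79e-17) and 56.5, 55.2 and 57.6 with siZIP7_2, where the call (log2 fold change -0.13, SE 0.052, adjusted p = 0.0276) was lost under 8 alternative settings. PARP9, the partner of DTX3L, fell by 1.76-fold and 1.38-fold, and PARP12 by 1.19-fold and 1.52-fold, with adjusted p-values of 0.000657 or less.

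SAMD9 and SAMD9L, which are neighbours on chromosome 7 and restrict poxviruses, parted with siZIP7_2. SAMD9L fell from 29.3, 21.9 and 28.5 CPM to 9.10, 7.63 and 7.94 with siZIP7_1 (log2 fold change -1.70, SE 0.10, adjusted p = 2.03e-15). With siZIP7_2, SAMD9L stood at 22.2, 19.4 and 22.3 CPM (log2 fold change -0.33, SE 0.087, adjusted p = 0.00129), overlapping siNC. SAMD9 was at 48.0, 43.5 and 48.8 CPM in siNC and 40.5, 42.1 and 41.0 with siZIP7_1 (log2 fold change -0.18, SE 0.059, adjusted p = 0.00710), a call that was lost without siNC replicate 3, and rose to 77.3, 66.7 and 72.0 with siZIP7_2 (log2 fold change 0.62, SE 0.058, adjusted p = 8.07e-11). Of the TRIM ligases, TRIM25, which activates RIG-I, was at 275, 286 and 266 CPM in siNC and 266, 287 and 257 with siZIP7_1, and rose to 337, 356 and 348 with siZIP7_2 (log2 fold change 0.33, SE 0.049, adjusted p = 4.83e-07). TRIM22 fell with both (-0.95 and -1.14 on the log2 scale), from 4.17 ± 0.782 CPM to 2.16 ± 0.233 and 1.91 ± 0.203. The antibody receptor TRIM21 had no call in any comparison, with 13.1 ± 0.416, 14.1 ± 0.732 and 14.1 ± 0.563 CPM.

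Of the classical IFI and MX genes, IFI6 and IFI44 were at 18.4 and 10.3 RPKM in siNC and the others under 1 RPKM. With siZIP7_1, IFI44, IFI44L, IFI27 and MX2 were lower and IFI6 higher. With siZIP7_2, IFI44 and MX2 were higher and IFI44L lower. IFI44, with the highest mean CPM of these genes in siNC, was at 21.6, 18.5 and 22.7 CPM in siNC and 13.0, 14.5 and 13.2 with siZIP7_1 (log2 fold change -0.63, SE 0.080, adjusted p = 5.07e-08). With siZIP7_2, IFI44 stood at 32.7, 29.1 and 29.7 CPM (log2 fold change 0.54, SE 0.074, adjusted p = 1.71e-07). IFI6, an anti-apoptotic protein, rose with siZIP7_1 from 15.9 ± 0.857 CPM to 21.4 ± 0.799 (log2 fold change 0.43, SE 0.080, adjusted p = 2.20e-05), and was at 16.3 ± 1.99 with siZIP7_2, below siZIP7_1 (log2 fold change -0.40, SE 0.079, adjusted p = 4.73e-05). IFI44L and IFI27 were scarce, with 1.93 to 3.03 and 1.23 to 2.10 CPM in siNC. IFI44L fell with both (-0.96 and -0.65) and IFI27 with siZIP7_1 (-0.71), but the call of IFI44L with siZIP7_2 and that of IFI27 were lost without siNC replicate 3. MX1, a GTPase that blocks influenza virus, stood at 1.34, 0.988 and 1.50 CPM in siNC, 0.728, 1.24 and 1.13 with siZIP7_1 and 1.28, 1.51 and 1.38 with siZIP7_2, overlapping groups with no call. MX2 had 27, 15 and 19 counts in siNC, 12, 2 and 9 with siZIP7_1 and 33, 41 and 28 with siZIP7_2. It was lower with siZIP7_1 (log2 fold change -1.55, SE 0.38, adjusted p = 7.03e-04), where one library was under the floor, and the call of a higher level with siZIP7_2 (log2 fold change 0.68, SE 0.28, adjusted p = 0.0307) was lost in 4 of the fits that left out a library and under DESeq2.

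IFI35 and NMI, partner proteins that bind STAT and IRF factors, both fell with both siRNAs (all genes, 35.9% and 39.3% lower). IFI35 went from 41.1, 38.7 and 38.2 CPM to 26.9, 25.4 and 27.5 with siZIP7_1 (log2 fold change -0.56, SE 0.062, adjusted p = 3.20e-09). With siZIP7_2, IFI35 stood at 22.5, 19.9 and 22.0 CPM (log2 fold change -0.88, SE 0.064, adjusted p = 3.90e-13). NMI fell from 20.8 ± 0.591 CPM to 15.0 ± 1.05 with siZIP7_1 (log2 fold change -0.47, SE 0.075, adjusted p = 2.71e-06). With siZIP7_2, NMI stood at 13.3 ± 1.06 CPM (log2 fold change -0.65, SE 0.077, adjusted p = 1.28e-08). The nuclear body protein SP100 fell likewise, from 89.0 ± 2.48 CPM to 61.2 ± 1.85 with siZIP7_1 (log2 fold change -0.54, SE 0.048, adjusted p = 4.73e-11). With siZIP7_2, SP100 stood at 66.4 ± 0.908 CPM (log2 fold change -0.42, SE 0.048, adjusted p = 5.29e-09). SP110 rose with siZIP7_1 from 17.6 ± 0.434 to 22.4 ± 1.17 CPM (log2 fold change 0.34, SE 0.069, adjusted p = 6.12e-05) and was at 18.8 ± 0.761 with siZIP7_2 (adjusted p = 0.254), though other genes cover 20.9% of its exonic length.

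The remaining effectors held some of the widest changes. XAF1, a pro-apoptotic protein, fell from 6.93, 5.16 and 6.48 CPM to 0.910, 0.996 and 1.44 with siZIP7_1 (log2 fold change -2.46, SE 0.17, adjusted p = 1.63e-13) and was at 5.82, 5.13 and 6.34 with siZIP7_2, overlapping siNC (log2 fold change -0.11, SE 0.13, adjusted p = 0.423). Another gene covers 38.3% of its exonic length. EPSTI1, named for its induction in epithelial cells beside stroma, had the reverse pattern, with 3.30, 3.78 and 3.56 CPM in siNC and 3.82, 4.57 and 3.14 with siZIP7_1 (log2 fold change 0.11, SE 0.15, adjusted p = 0.499). With siZIP7_2, EPSTI1 stood at 0.815, 0.921 and 0.961 CPM (log2 fold change -1.97, SE 0.19, adjusted p = 2.48e-10). BST2, which tethers budding virus to the cell, fell with both, from 119.5, 117 and 123 CPM to 50.1, 53.8 and 53.1 with siZIP7_1 (log2 fold change -1.19, SE 0.050, adjusted p = 1.15e-18). With siZIP7_2, BST2 stood at 72.5, 67.2 and 68.6 CPM (log2 fold change -0.79, SE 0.049, adjusted p = 1.13e-14). ISG20, an RNA exonuclease, rose with both, from 9.77, 7.52 and 9.04 CPM to 14.0, 12.5 and 13.1 with siZIP7_1 (log2 fold change 0.58, SE 0.10, adjusted p = 6.28e-06). With siZIP7_2, ISG20 stood at 33.3, 26.7 and 30.4 CPM (log2 fold change 1.77, SE 0.091, adjusted p = 1.26e-16). RSAD2, the radical SAM enzyme viperin, was at 0.472, 0.473 and 0.997 CPM in siNC, 0.692, 0.584 and 0.784 with siZIP7_1 and 2.06, 1.78 and 2.19 with siZIP7_2 (log2 fold change 1.60, SE 0.25, adjusted p = 1.58e-06), so that all 3 siZIP7_2 libraries lay above the other 6.

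RNF213, a giant ligase, rose from 147, 148 and 138 CPM to 275, 232 and 226 with siZIP7_1 (log2 fold change 0.76, SE 0.060, adjusted p = 3.67e-12) and fell to 106, 107 and 119.7 with siZIP7_2 (log2 fold change -0.38, SE 0.062, adjusted p = 2.55e-06), with no overlap between groups. LGALS3BP, the most abundant member, was at 683, 698 and 693 CPM in siNC and 692, 667 and 665 with siZIP7_1, overlapping ranges, and fell to 511, 477 and 516 with siZIP7_2 (log2 fold change -0.46, SE 0.046, adjusted p = 3.48e-10). PLSCR1, a phospholipid scramblase, fell with both, from 21.7 ± 0.801 CPM to 10.3 ± 0.186 with siZIP7_1 (log2 fold change -1.08, SE 0.072, adjusted p = 7.02e-14). With siZIP7_2, PLSCR1 stood at 15.8 ± 0.0463 CPM (log2 fold change -0.46, SE 0.069, adjusted p = 8.69e-07).

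Read by interferon type, 30 tested members are led by type I interferon, 24 are induced by both types and 4 are led by type II interferon, as assigned from general knowledge of each gene. Over all genes tested, 38.5% were higher and 39.3% lower with siZIP7_2, and 34.8% and 35.9% with siZIP7_1. For siZIP7_2 against siZIP7_1 these shares were 38.1% and 40.6%. Of the type I members, 16 were higher than siNC with siZIP7_2 and 4 lower (median log2 fold change 0.42), and of the members induced by both, 5 were higher and 16 lower (median -0.44). With siZIP7_1 the type I members were 9 higher and 14 lower (median -0.26) and those of both types 6 higher and 14 lower (median -0.33). Directly, siZIP7_2 was above siZIP7_1 for 19 type I members and below it for 7 (median 0.48), and above it for 10 and below it for 11 of those induced by both (median -0.092). The 4 members led by type II interferon, IRF1, GBP1, GBP2 and GBP3, were all lower with siZIP7_1 and all higher with siZIP7_2 than with siZIP7_1. Against siNC, siZIP7_2 gave a higher level of GBP2 and lower levels of the other 3, but this last count was 1 under 5 of the alternative settings and also without siNC replicate 1, siNC replicate 3 or siZIP7_2 replicate 2. Under the alternative settings the type I members higher with siZIP7_2 numbered 15 to 17 and those lower 3 to 4.

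Members with and without an ISRE core were found among both the higher and the lower genes. Over all genes tested, 34.8% were higher and 35.9% lower with siZIP7_1, and 38.5% and 39.3% with siZIP7_2. Of the 30 members with a core in a window, 7 were higher and 15 lower with siZIP7_1 (median log2 fold change -0.22), and 10 were higher and 15 lower with siZIP7_2 (median -0.094). Of the 17 tested members with windows but no core, 4 were higher and 12 lower with siZIP7_1 (median -0.54), and 6 were higher and 6 lower with siZIP7_2 (median -0.037). The 15 members with a GAS core were 2 higher and 10 lower with siZIP7_1 and 3 higher and 8 lower with siZIP7_2. No window was matched for IFIT2, IFITM2, MX2, OAS2, OASL, DHX58, IRF2, IRF7, USP18, TRIM22 and GBP2.

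The proteins that pass the sensors' signal on are not members and were taken from a list of 14 adaptors, kinases and other nucleic acid sensors, of which 10 were tested. With siZIP7_1, 3 rose and 7 fell (all genes, 34.8% and 35.9%), and with siZIP7_2, 7 rose and 3 fell (all genes, 38.5% and 39.3%). TMEM173, which encodes STING, the adaptor of the DNA sensor cGAS, rose with both siRNAs, from 24.1, 21.8 and 23.8 CPM to 107, 97.1 and 102 with siZIP7_1 (log2 fold change 2.13, SE 0.056, adjusted p = 2.55e-23). With siZIP7_2, TMEM173 stood at 111, 107 and 107 CPM (log2 fold change 2.22, SE 0.056, adjusted p = 1.16e-23). CGAS itself fell with both, from 63.1 ± 2.40 CPM to 35.1 ± 2.47 with siZIP7_1 (log2 fold change -0.85, SE 0.060, adjusted p = 2.82e-13). Its level with siZIP7_2 was 41.9 ± 2.92 CPM (log2 fold change -0.59, SE 0.060, adjusted p = 4.71e-10). The adaptor MAVS also fell with both (log2 fold change -0.41, adjusted p = 9.78e-09, and -0.76, adjusted p = 1.99e-14). TLR3, an endosomal receptor for RNA duplexes, fell with both, from 15.4 ± 1.38 CPM to 6.06 ± 0.405 with siZIP7_1 (log2 fold change -1.35, SE 0.094, adjusted p = 1.76e-13). With siZIP7_2, TLR3 stood at 7.13 ± 0.481 CPM (log2 fold change -1.11, SE 0.093, adjusted p = 7.58e-12). AIM2, a cytosolic DNA sensor of the same gene family as IFI16, was at 1.85, 1.98 and 1.78 CPM in siNC and 8.15, 8.98 and 8.84 with siZIP7_2 (log2 fold change 2.21, SE 0.14, adjusted p = 6.61e-15), and with siZIP7_1 it had only 2, 6 and 5 counts. Of 9 negative regulators, 3 rose (33.3%) and 4 fell (44.4%) with siZIP7_1, and 3 rose (33.3%) and 3 fell (33.3%) with siZIP7_2. SOCS1, an inhibitor of JAK kinases, fell with siZIP7_1 from 3.81, 3.48 and 3.63 CPM to 1.35, 1.17 and 1.54 (log2 fold change -1.42, SE 0.17, adjusted p = 9.60e-09) and was at 4.08, 3.22 and 3.69 with siZIP7_2, which overlapped siNC.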

How the data were processed

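MDA-MB-231 cells were sequenced as single reads after RNA extraction with DNase treatment. For each library the authors deposited a table of unnormalized read counts by Ensembl identifier, and the submitters' processing notes name Trim Galore 0.4.1, FastQC 0.11.2, STAR, HTSeq 0.6.1 and DESeq2 1.16.1 without a role or order. The genome build and the strand setting are not given in the sources used here. Reads with several alignments are absent from the counts, and reads in the shared part of overlapping genes may be lost, without strand also those of antisense partners. Of 58395 identifiers, 58275 were in GENCODE 29 (GRCh38), which gave symbols, positions and exonic lengths. Summary lines for reads not assigned to one gene, 10.3% to 14.1% of each library, stayed out of library sizes and tests.

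Groups came from the sample labels. The test was that of edgeR 4.0.16 (R 4.3.3): TMM normalization, the default low-count filter over groups (16761 genes), one fit of 3 groups with 6 residual degrees of freedom, and the quasi-likelihood test with Benjamini-Hochberg adjustment over all genes at 0.05. A second rule also asked for a fitted change of at least 2-fold. SE is the log2 fold change divided by the square root of F. CPM use TMM-scaled library sizes, RPKM divide them by exonic length, and 3 counts is the floor. Both siZIP7 comparisons share the siNC libraries, and siZIP7_2 against siZIP7_1 shares a group with each. No duplicate libraries were found. Same-numbered libraries did not deviate together (9 correlations from -0.12 to 0.13), so the numbers were taken as names only.

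The fit was tested on simulated counts with known changes. The members and lists were chosen with earlier results of these data known. Per-library values were given to members that changed by at least 2-fold (at most 10 a direction in each comparison), to RNA sensors and STAT or IRF factors, and to the leading member of each family. Of the lists, all ligands, receptors, kinases and factors could be named, and otherwise genes past 2-fold. WARS, LAP3, CGAS and MAVS, which stayed under 2-fold, were named in addition. Some genes of the lists are not reported here. The alternatives changed the scaling (upper quartile, or the size factors of DESeq2), the tool (DESeq2 1.42.0), the filter (none, or 10 counts as a minimum for each library) or the libraries fitted (each one left out in turn, or the 2 compared groups without the other), or added replicate numbers as a block.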

Additional observations from a re-analysis of the deposited data

Results flagged for a closer look

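The share of reads that were not assigned to one gene lay outside the comparisons and was higher with siZIP7_2 than in siNC. It was 10.7% ± 0.42 in siNC, 11.8% ± 0.99 with siZIP7_1 and 13.5% ± 0.72 with siZIP7_2 (mean ± SD, n = 3), and every siZIP7_2 library (12.7% to 14.1%) lay above every siNC library (10.3% to 11.2%). Its part in the levels of the members was not tested. Groups of 3 libraries are too small for a test of single outlying libraries.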

How the results depend on the processing

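Every count of members called in either direction stayed within 1.5 times its value under every alternative run. Of the 2781 values of single members under alternatives, 2664 kept their direction and their side of the threshold, 59 lost a call, 22 gained one and 36 changed sign. The median log2 fold change of the members with siZIP7_2 moved to 0.12 under upper-quartile normalization, -0.0501 without a low-count filter and 0.077 with at least 10 counts required in each library, and that of siZIP7_2 against siZIP7_1 to 0.49 under upper-quartile normalization, which also shifted the median of all genes with siZIP7_2 from -0.0018 to 0.10. With each library left out, the medians ran from -0.41 to -0.27 with siZIP7_1, from -0.034 to 0.046 with siZIP7_2 and from 0.36 to 0.43 between the siRNAs. The cause of these shifts was not tested.

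The type II members lower with siZIP7_2, 3 in the report, numbered 1 under upper-quartile normalization, DESeq2's size factors, DESeq2, at least 10 counts and the fit to the pair, and 1 to 3 with a library left out. The sensors higher with siZIP7_1, 1 in the report, numbered 2 under the replicate block and 1 to 2 with a library left out. The numbers did not pair the libraries (3 of 9 correlated best with their own number), and a replicate block moved the counts of all genes called from 11851, 13038 and 13187 to 11927, 13080 and 13242. Under it DHX58 passed the test with siZIP7_1 (adjusted p = 0.0423) and IRF9 between the siRNAs (adjusted p = 0.0319), and IRF1 no longer passed with siZIP7_2 (adjusted p = 0.0516).

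Signs changed only for values without a call. Under upper-quartile normalization, the log2 fold changes were 0.0091 for IL10RB with siZIP7_1, 0.037 for IFI27, 0.071 for ADAR and 0.069 for HERC6 with siZIP7_2, and 0.073 for TRIM21, 0.038 for HELZ2 and 0.068 for TRIM14 between the siRNAs. With at least 10 counts required they were 0.0064, 0.0051, 0.039, 0.038, 0.044, 0.0087 and 0.040 for the same genes in that order. TRIM21 and TRIM14 came to 0.028 and 0.023 with DESeq2's size factors, 0.028 and 0.024 with DESeq2 and 0.014 and 0.0097 in the fit to the pair. Without a low-count filter, the values with siZIP7_2 were -0.027 for OAS2, -0.018 for IFI6, -0.0501 for IRF7, -0.052 for SOCS1 and -0.014 for GBP4, and that of IFNGR1 between the siRNAs was -0.024.

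With a library left out, the ranges with siZIP7_1 were EPSTI1 from -0.031 to 0.25, IFITM1 from -0.0019 to 0.18, IFNAR1 from -0.0012 to 0.063, IL10RB from -0.18 to 0.17, IRF5 from -0.32 to 0.17, RSAD2 from -0.14 to 0.55 and TRIM25 from -0.075 to 0.0079. The ranges with siZIP7_2 were GBP4 from -0.12 to 0.15, HERC6 from -0.11 to 0.0054, IFI27 from -0.26 to 0.17, IFI6 from -0.038 to 0.14, IRF7 from -0.084 to 0.059, MX1 from -0.023 to 0.25, OAS2 from -0.044 to 0.078 and SOCS1 from -0.073 to 0.10. The ranges between the siRNAs were IFNGR1 from -0.021 to 0.076, IL10RB from -0.034 to 0.32, LAMP3 from -0.0041 to 0.27, TRIM14 from -0.062 to 0.027 and TRIM21 from -0.057 to 0.026.

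Calls near the threshold also turned with single settings. NMI, HERC5 and SP100 lost their call between the siRNAs under 9, 6 and 5 alternatives, and OAS3, SP110 and TRIM21 gained one with siZIP7_2 under upper-quartile normalization and under the stricter filter. For MX1, USP18, RSAD2, IFI27 and IFI44L, at a few CPM or less, depth limits the precision.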

Other observations

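Most tested genes led by type II interferon other than the members were also lower with siZIP7_1. Of 10 such genes on a list, 8 were tested. With siZIP7_1, 6 were lower than siNC (75%) and 1 higher (12.5%), beside 35.9% and 34.8% over all genes. With siZIP7_2, 5 were lower (62.5%) and 2 higher (25%), beside 39.3% and 38.5% over all genes. The median log2 fold changes were -2.26 and -0.42. WARS was the gene that rose with siZIP7_1 (log2 fold change 0.45, SE 0.045, adjusted p = 4.44e-10). LAP3 had no call with siZIP7_1 (log2 fold change 0.063) and fell with siZIP7_2 (log2 fold change -0.83, SE 0.055, adjusted p = 4.24e-14). GBP4, a further guanylate-binding protein, stood at 11.1, 7.56 and 11.5 CPM in siNC, 1.35, 0.893 and 1.41 with siZIP7_1 (log2 fold change -3.05, SE 0.17, adjusted p = 1.09e-15) and 11.4, 9.41 and 10.5 with siZIP7_2, which overlapped siNC. APOL3, an apolipoprotein L active against bacteria, fell with both siRNAs, from 9.83 ± 0.919 CPM to 3.10 ± 0.0809 with siZIP7_1 (log2 fold change -1.66, SE 0.12, adjusted p = 2.71e-13). With siZIP7_2, APOL3 stood at 4.45 ± 0.559 CPM (log2 fold change -1.14, SE 0.11, adjusted p = 2.67e-10). The chemokines CXCL10 and CXCL11, which attract T cells, were lower with siZIP7_1 (adjusted p = 5.20e-10 and adjusted p = 8.90e-09), where their counts were at or below the floor. Their calls of lower levels with siZIP7_2 (adjusted p = 0.0302 and adjusted p = 0.0282) were lost under upper-quartile normalization, under DESeq2 and without siNC replicate 1, siNC replicate 3 or siZIP7_2 replicate 2. CXCL10 had 35, 21 and 34 counts in siNC, 1, 2 and 2 with siZIP7_1 and 18, 20 and 23 with siZIP7_2, and CXCL11 had 27, 16 and 28, 2, 0 and 1 and 17, 17 and 10. GBP5 had 15, 15 and 11 counts in siNC, 0, 4 and 2 with siZIP7_1 and 67, 76 and 67 with siZIP7_2, where it was higher than siNC (log2 fold change 2.29, SE 0.25, adjusted p = 2.24e-09).

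Of 27 further interferon-stimulated genes on a list, 26 were tested. With siZIP7_1, 7 were higher (26.9%) and 14 lower (53.8%), beside 34.8% and 35.9% over all genes. With siZIP7_2, 10 were higher (38.5%) and 15 lower (57.7%), beside 38.5% and 39.3% over all genes. HELZ2, a helicase coactivator, rose with both siRNAs, from 109.5, 105 and 105 CPM to 241, 224 and 229 with siZIP7_1 (log2 fold change 1.11, SE 0.048, adjusted p = 2.13e-18). With siZIP7_2, HELZ2 stood at 234, 217 and 223 CPM (log2 fold change 1.07, SE 0.048, adjusted p = 4.93e-18). TRIM14, an adaptor of MAVS, fell to nearly the same level with both, from 66.3, 67.8 and 61.2 CPM to 13.6, 12.8 and 14.3 with siZIP7_1 (log2 fold change -2.26, SE 0.067, adjusted p = 3.29e-22). With siZIP7_2, TRIM14 stood at 14.5, 13.2 and 12.7 CPM (log2 fold change -2.27, SE 0.067, adjusted p = 3.64e-22), and siZIP7_2 against siZIP7_1 gave no call (log2 fold change -0.012, SE 0.076, adjusted p = 0.892). The cytidine deaminases APOBEC3B and APOBEC3F fell with both, APOBEC3B from 22.5 ± 0.699 CPM to 7.53 ± 0.408 with siZIP7_1 (log2 fold change -1.58, SE 0.084, adjusted p = 3.48e-16). With siZIP7_2, APOBEC3B stood at 13.7 ± 1.42 CPM (log2 fold change -0.72, SE 0.078, adjusted p = 2.17e-09). APOBEC3G had 91, 55 and 104 counts in siNC, 1, 4 and 2 with siZIP7_1 and 35, 26 and 32 with siZIP7_2. OGFR, the opioid growth factor receptor, fell with siZIP7_1 from 194 ± 5.02 CPM to 74.6 ± 0.574 (log2 fold change -1.38, SE 0.046, adjusted p = 4.66e-21), against 163 ± 2.98 with siZIP7_2 (log2 fold change -0.25, SE 0.044, adjusted p = 7.93e-06).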
